A study of Rattus norvegicus with 7 samples.

Results

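The hypothalamus is a small region at the base of the brain that governs water balance, feeding, sleep, reproduction, temperature and the pituitary gland. Much of its output is carried by neuropeptides, short signals that are cut from larger precursor proteins and stored in dense-core vesicles. Individual nuclei are known by the peptides their neurons make: oxytocin and vasopressin in the magnocellular neurons of the supraoptic and paraventricular nuclei, melanin-concentrating hormone and orexin in the lateral hypothalamus, and POMC, AgRP and kisspeptin in the arcuate nucleus. The level of a precursor mRNA in a bulk sample depends both on how many such cells were taken and on how much each one makes, and fewer cells of a type and less RNA per cell cannot be told apart.

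The data described here are the hypothalamus libraries of the series, 3 of 7 RNA sequencing samples. They came from male Sprague Dawley rats, 2 months old at the start, that ate a diet containing DHA for 6 weeks. DHA is docosahexaenoic acid, the main omega-3 fatty acid of brain membranes. All 3 libraries belong to this one group. Libraries of the chow-fed animals are not analysed here, so every value is a level on the DHA diet and no effect of the diet was estimated. The labels number the libraries as replicates 1 to 3 without stating that each was 1 animal, so an SD measures only the spread between these samples, which may be technical.

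Values are FPKM, that is, fragments counted at a transcript divided by its length in kilobases and by the library's size. Division by length allows levels of different genes to be set in order within the table. The table held 17762 loci, and 17738 were marked as successfully quantified in every library. Taking the highest locus of each gene symbol left 16163 symbols, of which 14695 had 1 locus and 1468 had several. A mean of at least 1 FPKM was reached by 10757 symbols (66.6%), and 10293 were at 1 FPKM or more in every library. The median over all symbols was 5.23 FPKM. At the top, 39 symbols had a mean of at least 1000 FPKM and 755 more had at least 100, while 2817 were listed at 0 in all libraries. Summed over symbols, the libraries held 436955, 441163 and 459276 FPKM. Read depth is unknown because no counts were used.

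Replicate 1 stood apart. Over the 9734 symbols with 1 locus and at least 1 FPKM, its log2(FPKM + 1) values correlated across genes with replicates 2 and 3 at r = 0.956 and 0.950, against 0.973 between replicates 2 and 3. Over symbols with several loci the same values were 0.822 and 0.824 against 0.968. In replicate 1, 34 symbols lay under 0.1 times the lower of the other libraries, 27 of them with several loci, while replicates 2 and 3 had 1 and 2 such symbols. A further limit concerns zeros and values near 0. Of 242 genes for ribosomal proteins, respiratory chain, glycolysis, chaperones, cytoskeleton, ion pumps, second messengers and synaptic vesicles, most of which every neuron uses, 19 had a mean under 1 FPKM, 12 of them ribosomal protein genes, and Rps19, Rps13, Rpl8, Rpl7a, Rpl35a, Rplp2 and Rps27a were listed at 0 throughout (these were chosen after their values were seen). A value of 0, or one under 1 FPKM, is therefore given below as a listing, not as absence.

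Oxt, Avp, Pmch and Hcrt were taken as markers of the hypothalamus, and their ranks ran from 9 to 72. No other tissue was compared, so these ranks are a description and not a test of the label. Avp encodes vasopressin, the antidiuretic hormone, and Oxt encodes oxytocin, the hormone of birth and milk ejection; both are secreted from the posterior pituitary. Avp read 2818, 3712 and 3229 FPKM in replicates 1, 2 and 3 and was the 9th most abundant symbol. Oxt read 2966, 1024 and 2000.3 FPKM and ranked 12th. Avp varied little between libraries, whereas Oxt was highest in replicate 1 and lowest in replicate 2, so that the ratio of Oxt to Avp went from 1.05 in replicate 1 to 0.276 in replicate 2 and 0.619 in replicate 3. Together they made up 1.18% ± 0.130 (SD, n = 3) of all FPKM.

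Pmch encodes the precursor of melanin-concentrating hormone, which promotes feeding and sleep, and Hcrt encodes the orexins (hypocretins), which sustain wakefulness. Pmch read 1329.8, 375 and 773 FPKM, with a rank of 53. Hcrt read 867, 333 and 757 FPKM, with a rank of 72. For these 2 genes too, replicate 1 was highest and replicate 2 lowest, and Oxt, Pmch and Hcrt shared the same order of libraries. Without replicate 1, Oxt ranked 19th, Pmch 92nd and Hcrt 98th, while Avp ranked 8th.

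The last 100 bases before the annotated transcription start of Oxt, Avp and Hcrt are shown from the RefSeq promoter table (rat assembly GRCr8), since all 3 hold the same short stretch close to the start. Pmch has no entry in that promoter table and is not shown. Each sequence shown is read on the gene's own strand. Oxt lies at chr3:138235654-138235753 on the plus strand, Avp at chr3:138248523-138248622 on the minus strand and Hcrt at chr10:86191525-86191624 on the minus strand. The capitals mark ATAAA, part of the TATA box consensus.
Oxt: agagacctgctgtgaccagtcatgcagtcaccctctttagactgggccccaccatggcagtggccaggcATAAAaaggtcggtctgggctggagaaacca
Avp: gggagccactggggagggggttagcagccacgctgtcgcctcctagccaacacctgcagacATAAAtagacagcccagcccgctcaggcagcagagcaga
Hcrt: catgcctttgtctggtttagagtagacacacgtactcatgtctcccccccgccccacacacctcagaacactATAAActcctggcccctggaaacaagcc

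The stretch begins 31 bases before the start in Oxt, 39 in Avp and 28 in Hcrt. The longer motif TATAAA, which contains ATAAA, was searched first and occurs on the gene strand only in the Hcrt window of these 3; ATAAA was chosen after the sequences were read. On the gene strand, ATAAA was present in the same 100 bases of 11.5% of all 27457 promoters in the table, and of 5.44% of the 7956 matched promoters of symbols with at least 1 FPKM. It was present in 17.8% of the promoters of the 100 highest symbols (13 of 73 matched) and in 34.1% of those of the hypothalamic hormone and peptide lists (14 of 41 matched). TATAAA gave 4.13%, 2.29%, 8.22% and 22.0% for the same 4 sets, and counting either strand, ATAAA gave 18.5%, 8.70%, 21.9% and 36.6%. Both smaller sets include Oxt, Avp and Hcrt, from which ATAAA was read; without them, the shares on the gene strand were 14.3% of the 100 highest and 28.9% of the peptide lists. From 40 to 21 bases before the start, where the stretch lies in all 3, ATAAA was present in 3.15% of all promoters, 1.91% of those of expressed symbols, 13.7% of the 100 highest and 17.1% of the peptide lists, and without the 3 genes in 7 of 70 and 4 of 38 promoters of the last 2 sets. These shares describe letters in a window and were not tested.

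**Figure D1:**
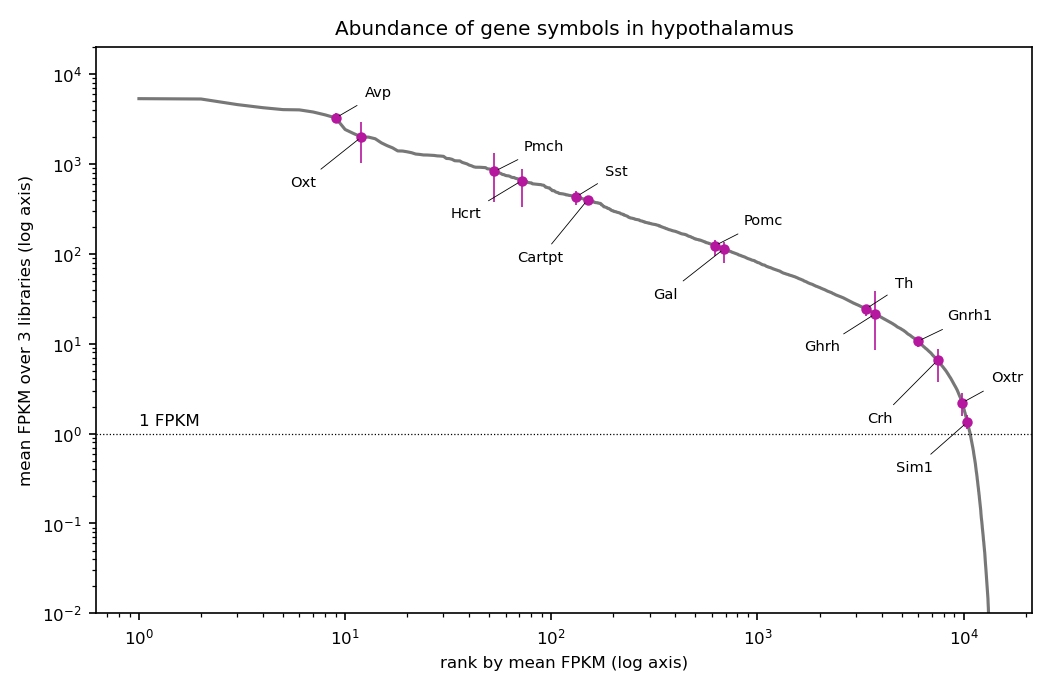
Mean FPKM over 3 libraries (log axis) against rank (log axis) for all symbols above 0, with 14 hypothalamic genes marked and bars from the lowest to the highest library. Avp and Oxt lie at ranks 9 and 12, Pmch and Hcrt at 53 and 72, and Oxtr and Sim1 just above the 1 FPKM line.

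The most abundant transcripts were a mixture of glial, secreted, energy and hormone genes. Ptgds, the brain prostaglandin D synthase that is also secreted into the cerebrospinal fluid, ranked first with 4724, 9568 and 1685 FPKM. Ubb, a ubiquitin gene, followed with 5057, 4245 and 6535 FPKM, and Gnas, the stimulatory G protein alpha subunit, ranked 4th with 3331, 4174 and 5164 FPKM. Ptgds was highest in replicate 2 and lowest in replicate 3, by a factor of 5.68, and Ubb and Gnas varied 1.54-fold and 1.55-fold. Without replicate 2, Ptgds ranked 7th.

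The third place rested on 1 library. RT1-CE16, a class I gene of the major histocompatibility complex, read 0, 13723 and 0 FPKM, that is, it was the highest symbol of replicate 2 and listed at 0 in the others. By the median over libraries its rank was 14547. Genes of this family are near-identical copies whose reads can be divided among loci, and that was not tested here.

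Ranks 5 to 8 belonged to Cst3, the secreted protease inhibitor cystatin C (4022 ± 741 FPKM), Apoe, the main lipid carrier of brain (3995 ± 720.4 FPKM), Mbp, a structural protein of myelin (3783 ± 602 FPKM), and Fth1, the iron-storing ferritin heavy chain (3516 ± 212 FPKM). Throughout, such values are mean ± SD over the 3 libraries. After Avp came Uchl1, a neuronal deubiquitinating enzyme (2418 ± 493), and Zwint (2178 ± 596). Below Oxt stood Nnat, an imprinted membrane proteolipid (1987 ± 949), Clu, the extracellular chaperone clusterin (1907 ± 248), the actin-binding thymosin Tmsb4x (1716 ± 411), the metallothionein Mt3 (1597 ± 354), Actb (1509 ± 195) and Rpl41 (1396 ± 92.7). Oxt and Nnat thus lay 1 rank apart with nearly equal means, and their library ranges overlapped.

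The remaining 12 of the 30 highest had means between 1215 and 1392 FPKM. Among them, from the highest down, were Cd81, Sparc, Atp5j2, Resp18, Mobp, Slc22a17, Atp6v0c, Atp5e, Cox6a1, Ndrg2 and Sparcl1. They include the myelin gene Mobp, subunits of ATP synthase (Atp5j2, Atp5e), and Resp18, a protein of the regulated secretory pathway. In all 29 of the 29 pairs of neighbours in this order the ranges over libraries overlapped, so no neighbouring place is separated beyond the spread. Of the 30 symbols, 18 were among the 30 highest of every library. Of the 100 highest by mean, 76 were among the 100 highest of every library.

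The 10 highest symbols held 7.59%, 11.8% and 7.81% of all FPKM in replicates 1, 2 and 3. Replicate 2 was the high one, and without RT1-CE16, a choice made after seeing the data, the shares were 8.25%, 9.38% and 8.24%. The 100 highest held 27.5% ± 2.17 and the 1000 highest 62.2% ± 1.40 (SD, n = 3).

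The hormone and peptide lists had 55 genes in the table, including a few enzymes and factors that mark the same nuclei, and 49 were at 1 FPKM or more, against 66.6% of all symbols. They held 2.55%, 1.93% and 2.34% of all FPKM. Replicate 2 was lowest.

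Among parvocellular and arcuate peptides, Sst, the growth hormone inhibitor somatostatin, was the most abundant at 449, 345 and 501 FPKM, rank 132. Cartpt, precursor of the satiety peptide CART, was close behind at 441, 363 and 391 FPKM, rank 150. Both were lowest in replicate 2 and their ranges overlapped. Tac2, an older symbol for the neurokinin B gene of arcuate kisspeptin neurons, read 169, 91.8 and 188 FPKM. Pomc, precursor of the appetite-suppressing melanocortin alpha-MSH, read 94, 141 and 135 FPKM, and its functional opponent Agrp read 8.27, 10.4 and 21.7 FPKM. Agrp was highest in replicate 3 and Pomc lowest in replicate 1, and every Pomc value lay above every Agrp value. Npy, the peptide that AgRP neurons also make, was listed at 0 in all 3 libraries at both of its loci, which for the reason given above is not read as absence.

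Hypophysiotropic hormones, which control the anterior pituitary, spanned a wide range. Trh, the thyrotropin releaser, read 75.5, 108 and 145 FPKM and Ghrh, the growth hormone releaser, 8.6, 38.5 and 17.5 FPKM. Gnrh1, made by scattered preoptic neurons and required for fertility, read 11.1, 9.26 and 11.6 FPKM. Crh, which starts the stress axis, read 7.13, 3.71 and 8.75 FPKM. Gnrh1 was even across libraries, Trh was lowest in replicate 1, and Ghrh differed 4.48-fold, with replicate 2 highest and replicate 1 lowest.

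Kiss1, the kisspeptin gene that drives the Gnrh1 neurons, read 3.12, 7.86 and 10.3 FPKM and was lowest in replicate 1. Gal, encoding galanin, read 128, 79.6 and 134 FPKM and was lowest in replicate 2. Th, the rate-limiting enzyme of dopamine synthesis, read 20.4, 26.3 and 26.4 FPKM, and Slc6a3, the dopamine transporter, 0.321, 1.9 and 0.391 FPKM. Th was lowest in replicate 1, while Slc6a3 passed 1 FPKM only in replicate 2.

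Of ventromedial and preoptic genes, Penk, the enkephalin precursor, read 189, 203 and 217 FPKM and Adcyap1, encoding PACAP, 48.2, 42.7 and 46.5 FPKM, both with narrow ranges. Nr5a1 (SF-1), the factor that defines the ventromedial nucleus, read 2.09, 6.37 and 6.58 FPKM, and Fezf1, another factor of that nucleus, 12.5, 22 and 22.5 FPKM. Both factors were lowest in replicate 1. Suprachiasmatic genes were low: Vip read 4.99, 9.71 and 5.02 FPKM and Grp 6.94, 7.13 and 5.92 FPKM, while Lhx1, a factor of the clock nucleus, read 36.3, 54.2 and 33.4 FPKM and was highest in replicate 2. Hdc, which makes histamine in the tuberomammillary nucleus, read 22.6, 23.2 and 25 FPKM, and Maob, which degrades its metabolite, 53.8, 52.9 and 54.7 FPKM; both were even across libraries.

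Other peptides were led by the granins and Penk. Cck, encoding cholecystokinin, read 153, 52.4 and 54.3 FPKM, with replicate 1 far above the others. Npvf, the RF-amide gene of the dorsomedial hypothalamus, read 26.4, 73.5 and 88.6 FPKM, with replicate 1 far below. Pnoc, precursor of nociceptin, read 47.3, 35.9 and 60.7 FPKM and Pdyn, precursor of the dynorphins, 36.7, 43.7 and 50.2 FPKM, and their ranges overlapped. Nts, encoding neurotensin, read 42.9, 14.9 and 33 FPKM and was lowest in replicate 2. At the other end of the list of 23 found, Rln3 and Npw stayed under 1 FPKM, and Qrfp and Uts2d were listed at 0.

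**Figure D2:**
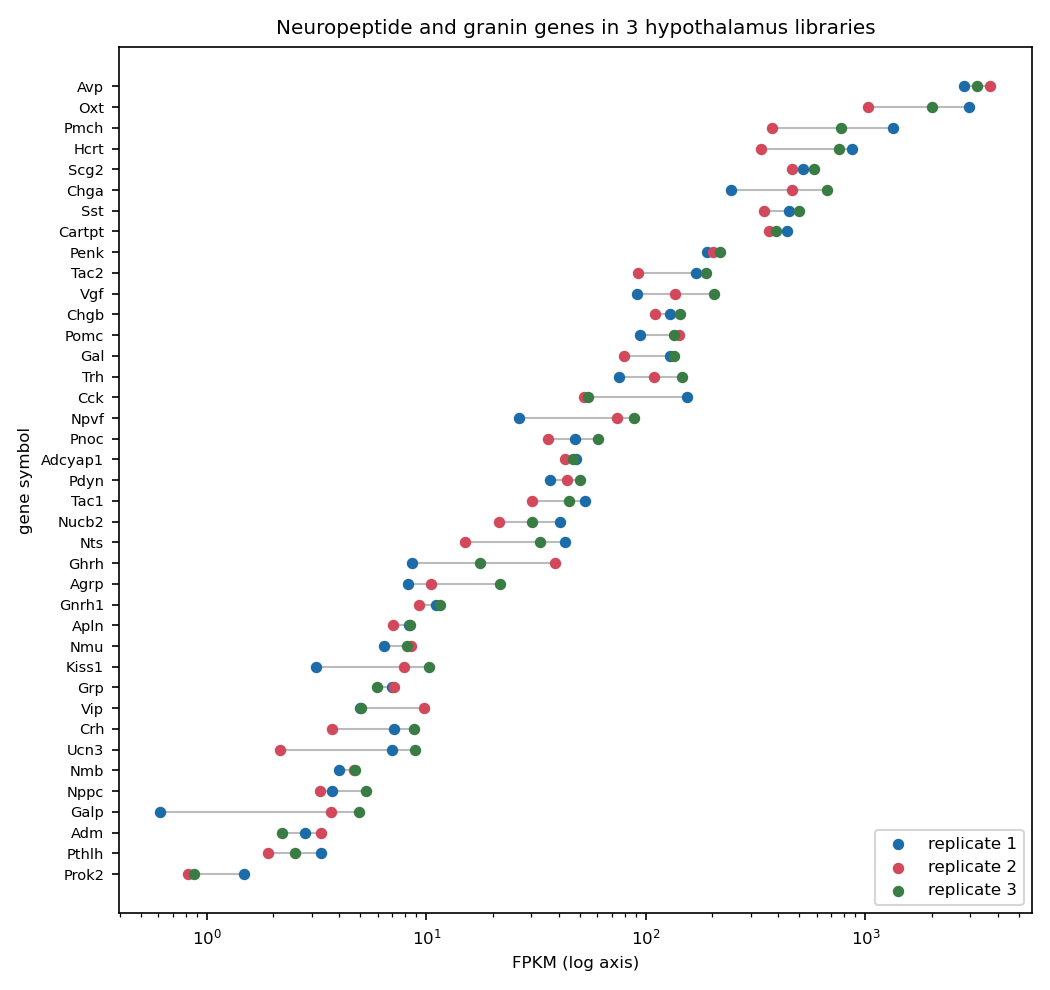
FPKM (log axis) of each neuropeptide and granin gene of the lists with a mean of at least 1 FPKM; points are the 3 libraries and a line joins the lowest to the highest. Avp has a narrow range, Oxt, Pmch and Hcrt are highest in replicate 1 and lowest in replicate 2, and Npvf, Ghrh, Kiss1 and Galp are lowest in replicate 1.

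The machinery that turns precursors into peptides was abundant. Of 13 prohormone processing genes found, 12 were at 1 FPKM or more and 8 at 100 or more, with a median percentile of 96.8 among all symbols, where 50 is the middle. Cpe, the carboxypeptidase that trims cleaved peptides, read 862, 598 and 617 FPKM. The granins, which help form dense-core vesicles, followed: Scg2 at 519.6, 461 and 582, Chga at 244, 462 and 670.2, Scg3 at 204, 183 and 183 and Chgb at 129, 109.9 and 144 FPKM. Cpe was highest in replicate 1 and Chga lowest there, by a factor of 2.75. Scg5, the chaperone of the convertase PC2, read 348, 334 and 416 FPKM and Pcsk2, which encodes PC2, 43.5, 41 and 47.6 FPKM. Pam, the enzyme that amidates oxytocin, vasopressin and many other peptides, read 167, 149.9 and 159 FPKM. Pcsk1, the other main neuroendocrine convertase, was listed at 0.378, 0.22 and 0.24 FPKM. The ubiquitous chaperone gene Hspa8 was listed as low, at 0.274, 0.194 and 0.153 FPKM. The Pcsk1 values are therefore not read as near absence. The share of all FPKM held by this list was 0.609%, 0.572% and 0.670%.

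Receptors were lower than the most abundant ligands, and level with ligands such as Crh, Kiss1 and Vip. Of 35 peptide and metabolic hormone receptor genes found, 32 were at 1 FPKM or more (all symbols: 66.6%) but 6 at 10 or more. Their median was 4.61 FPKM and their median percentile 48.1, near the middle of all symbols. The highest were Ramp2, Calcr, Ramp1 and Gpr101, of which Calcr, the calcitonin receptor, read 52.8, 40.9 and 53.5 FPKM and the accessory protein gene Ramp2 120.2, 111 and 121 FPKM. Npy1r, a receptor for neuropeptide Y, came next at 17.3, 9.3 and 7.74 FPKM and was highest in replicate 1. The receptors of the 4 hormones named first were low: Mchr1 read 6.93, 9.24 and 10.5, Hcrtr1 5.42, 7.23 and 9.3, Hcrtr2 3.01, 2.48 and 2.47, Avpr1a 2.74, 3.11 and 4.29 and Oxtr 1.57, 2.22 and 2.81 FPKM. Oxtr was therefore at a level near the 1 FPKM line, while Oxt ranked 12th by its mean over the same libraries. Mc3r and Mc4r, through which melanocortins act, read 4.59, 5.74 and 7.48 and 3.4, 2.81 and 3.5 FPKM, and Ghrhr, the lowest of the list, 0.0221, 0 and 0 FPKM. Lepr and Sstr3 were not analysed here.

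Nuclear hormone receptors were led by Thra, the thyroid hormone receptor alpha, at 111, 108 and 143 FPKM. Rxrg, Rxrb and Rxra, the shared partners of many nuclear receptors, had means of 21.6, 19.9 and 18.6 FPKM. Nr3c1, the glucocorticoid receptor, read 16.3, 13.7 and 11.9 FPKM and was highest in replicate 1, whereas the retinoid partners were lowest there. Sex steroid receptors were lower, with Pgr, the progesterone receptor, at 2.79, 2.11 and 2.75 and Esr1, the estrogen receptor alpha, at 1.64, 1.89 and 2.05 FPKM. Of the 14, 11 were at 1 FPKM or more (all symbols: 66.6%), and Pparg was the lowest with 0.476, 0.474 and 0.107 FPKM.

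Transcription factors that pattern the hypothalamus lay near the middle of all symbols, with a median of 4.82 FPKM (all symbols: 5.23) and a median percentile of 48.7. Of 38 found, 36 were at 1 FPKM or more (all symbols: 66.6%), 10 at 10 or more and none at 100. Of all 16163 symbols, 39 had at least 1000 FPKM, 755 more at least 100 and 5394 more at least 10. The 5 highest were Nr2f2, Lhx1, Dlx1, Fezf1 and Otp. Nr2f2 (COUP-TFII) read 37.5, 40.8 and 46.2 FPKM. Otp, required for the neuroendocrine neurons of the paraventricular nucleus, read 9.36, 15.2 and 22.7 FPKM and Nkx2-1, required for the ventral hypothalamus as a whole, 9.72, 14.6 and 16.2 FPKM; both were lowest in replicate 1. Sim1, also required for those neurons, read 1.61, 1.28 and 1.13 FPKM, and the lowest was Sim2 at 0.512, 0.726 and 1.01 FPKM. Of the 36 expressed factors, 22 had their lowest value in replicate 1 and 19 their highest in replicate 3. Over all 10757 expressed symbols, replicate 1 was lowest for 36.0% and replicate 3 highest for 35.4%. Without replicate 1, 34 factors were at 1 FPKM or more.

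Genes of GABA neurons ranked high, with a median percentile of 96.3. Gad2 and Gad1, which make GABA, read 202, 146 and 163 and 110.1, 118 and 156 FPKM, and Slc32a1, which loads it into vesicles, 66.6, 66.5 and 100.01 FPKM. Slc17a6, the vesicular glutamate transporter VGLUT2 of hypothalamic and thalamic neurons, read 78.1, 27.4 and 27.5 FPKM, with replicate 1 above the others. Its second locus was listed at 0 in replicate 1 and carried signal in the others, and with both loci summed it read 78.1, 43.6 and 43.3 FPKM. Slc17a7, the cortical transporter VGLUT1, stayed at 0.985, 0.15 and 0.648 FPKM and Slc17a8 at 1.95, 1.13 and 1.3 FPKM. The ratio of Slc17a6 to Slc32a1 was 1.17, 0.412 and 0.275 in replicates 1, 2 and 3, and 1.16, 0.641 and 0.421 with loci summed. Without Slc17a6, 7 of the other 10 expressed genes of the thalamus list were highest in replicate 1 (all expressed symbols: 44.3%), including Prkcd at 31.5, 16.5 and 8.27, Ntng1 at 16.7, 7.69 and 11 and Tcf7l2 at 17, 9.03 and 9.43 FPKM. Calb2 (calretinin), the most abundant member, was lowest there, at 104, 109.6 and 146 FPKM. Without Slc17a6 the list summed to 209, 184 and 203 FPKM, and without Calb2 as well to 105, 74.0 and 57.2 FPKM. The part of thalamic tissue in the Slc17a6 values was not tested.

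For other transmitters, Chat, which makes acetylcholine, read 6.18, 9.35 and 6.67 FPKM, and Slc18a2, which loads monoamines, 10.7, 12.7 and 9.88 FPKM. Genes of serotonin and noradrenaline cells, which lie in the brainstem, were near 0: Tph2 read 0.614, 0.305 and 0.602, Slc6a4 0.181, 0.0909 and 0.103 and Dbh 0.0353, 0 and 0.0405 FPKM.

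Among the general neuronal genes, all 18 were at 1 FPKM or more and 13 at 100 or more, with 1.76% ± 0.272 of all FPKM (SD, n = 3). After Uchl1 the highest were Sncb (beta-synuclein) at 427, 1144 and 1689, Thy1 at 576, 664 and 824 and Stmn3 at 797, 491 and 693 FPKM. Sncb was 3.95-fold lower in replicate 1 than in replicate 3. The 18 genes of synaptic vesicles and release were all expressed, with Syp, Rab3a and Snap25 at means of 465, 399 and 371 FPKM. Their highest member, Vamp2, read 0, 902 and 1029.8 FPKM, and with its 2 loci summed 324, 1346 and 1593 FPKM. Calmodulin, G protein and second messenger genes had Gnas, Pcp4 and Calm3 among their highest members and held 1.72% ± 0.160. With symbols of 1 locus only, that share was 0.452%.

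Glial genes took a larger share than the peptides. The 54 genes of astrocytes, oligodendrocytes, their precursors and microglia were all at 1 FPKM or more and held 6.01% ± 0.159 of all FPKM. Astrocyte genes alone held 4.02% ± 0.0744, the narrowest relative spread of the shares described here, with all 19 at 10 FPKM or more. Their 4 highest were Cst3, Apoe, Clu and Sparcl1, which other cells also express. More restricted markers were Gfap at 329, 593 and 325, Aqp4, the water channel of astrocyte endfeet, at 272, 272 and 197 and Slc1a2, the main glutamate transporter, at 257, 214 and 191 FPKM. Gfap was highest in replicate 2. Aqp4 and Slc1a2 have a second locus, which in replicate 1 read under 1 FPKM for Aqp4 and 0 for Slc1a2. With loci summed, Aqp4 read 272, 318 and 250.05 and Slc1a2 257, 309 and 269.6 FPKM, so that Slc1a2 went from highest to lowest in replicate 1. Agt, encoding angiotensinogen and known for high levels in hypothalamic astrocytes, read 937, 893 and 1034 FPKM.

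Oligodendrocyte genes held 1.60%, 2.01% and 1.79%, with all 15 found at 10 FPKM or more. Mbp read 3089, 4090.4 and 4168, Mobp 979, 1341 and 1456 and Tf, encoding transferrin, 533, 485 and 329 FPKM. Mbp and Mobp were the 2 genes of the list that were highest in replicate 3. Of the 15, 8 were highest in replicate 1, a share near the 44.3% of all expressed symbols, and 9 were lowest in replicate 3 (all expressed symbols: 31.6%). A second locus of Cnp, left out of these counts, read 1.03, 236 and 195 FPKM. Precursor markers were lower, led by Olig1, Olig2, Sox10 and Pdgfra, and 6 of 8 were lowest in replicate 1 (all expressed symbols: 36.0%). Pdgfra, at 18.6, 19.96 and 12.1 FPKM, was 1 of the 2 lowest in replicate 3. Microglia held 0.150% ± 0.0188, with Ctss, C1qb and C1qa among the highest; the complement gene C1qa read 67, 72.7 and 73.6 FPKM and the fractalkine receptor gene Cx3cr1 17.1, 16.3 and 16.9 FPKM, both even.

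Tanycytes are cells that line the floor of the third ventricle and sense blood-borne signals. Of the markers found, 14 of 15 for tanycytes and 9 of 9 for ependymal cells were at 1 FPKM or more (all symbols: 66.6%). The tanycyte list lay near the middle of all symbols, with a median of 4.80 FPKM and a median percentile of 48.6. For the ependymal list these were 19.2 FPKM and 74.8. Vim, Ppp1r1b and Crym were among the highest of the tanycyte list, and Ppp1r1b also stands in the striatum list. Dio2, which activates thyroid hormone in tanycytes, read 3.99, 6.06 and 4.34 FPKM, and Rax, their defining factor, 1.7, 5.97 and 6.21 FPKM. Of the 14, 10 were highest in replicate 2 (all expressed symbols: 20.3%) and none in replicate 1. Foxj1, the factor for motile cilia in ependymal cells, read 12.9, 27.4 and 33.9 FPKM, behind Dynlrb2 and Rarres2.

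**Figure D3:**
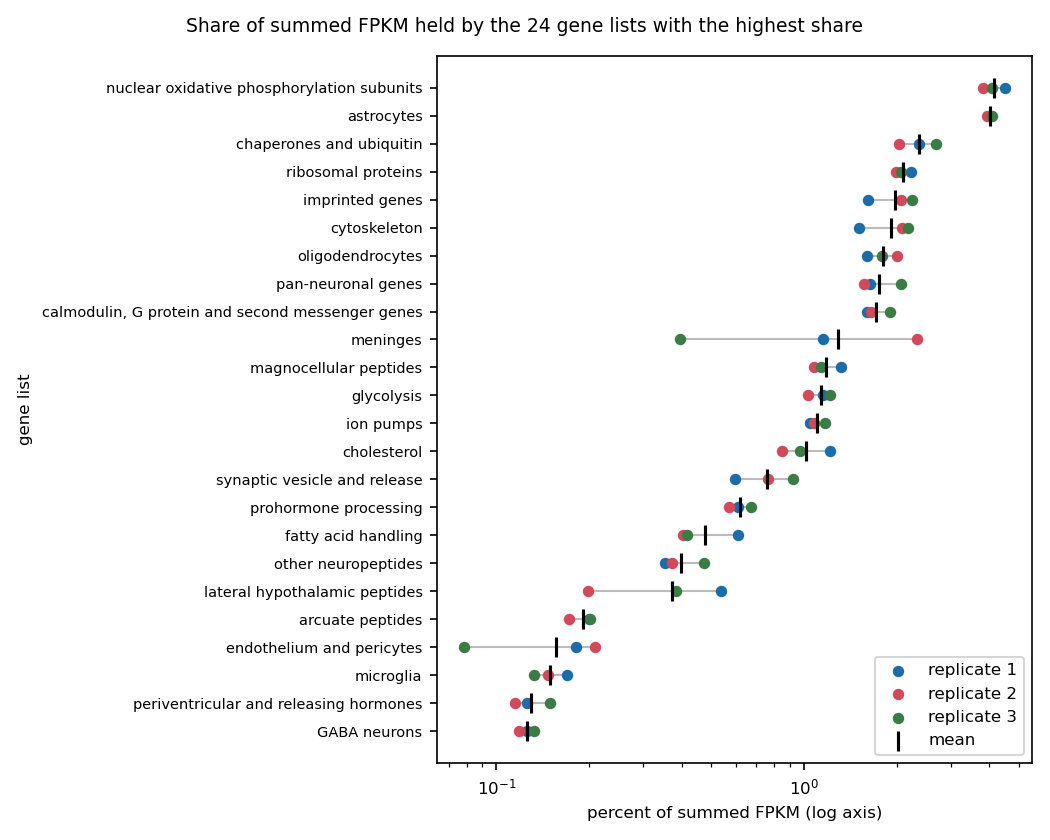
Percent of summed FPKM (log axis) in each library for the 24 gene lists with the highest mean share; points are libraries and black ticks are means. Astrocyte genes keep nearly the same share in every library, while the meninges list goes from 0.394% in replicate 3 to 2.33% in replicate 2.

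Markers of tissues next to the hypothalamus were uneven between libraries. All 12 expressed genes of the meninges list were highest in replicate 2 and lowest in replicate 3, against 20.3% and 31.6% of all expressed symbols. The list held 1.16%, 2.33% and 0.394% of all FPKM, and Ptgds, which glia also express, made up most of it. Igf2, a growth factor of leptomeninges and choroid plexus, read 99.5, 239.9 and 41.1, Bgn (biglycan) 43.7, 109 and 18.5, Dcn (decorin) 34.6, 72.8 and 17.5 and Col1a1 (collagen I) 18.9, 51.7 and 8 FPKM. Other members at 10 FPKM or more were Slc13a4, Slc6a13, Col3a1, Fmod, Crabp2 and Slc22a6, with means from 11.5 to 43.8 FPKM. Smooth muscle genes of vessel walls followed the same order, with Tagln at 199.7, 313 and 42 and Acta2 at 167, 239.7 and 17.7 FPKM, while the endothelial glucose transporter Slc2a1 did not, at 105, 98.8 and 107 FPKM. Of 13 endothelium and pericyte genes, which include Tagln and Acta2, 6 were highest in replicate 1, a share near the 44.3% of all expressed symbols, 6 in replicate 2 and 1, Slc2a1, in replicate 3, and 8 were lowest in replicate 3. Of 4 expressed blood cell genes, 3 were highest in replicate 2, 1 in replicate 1, and all 4 were lowest in replicate 3, with the globin Hbb-b1 at 49.95, 79.7 and 29.2 and Alas2 at 7.81, 21.3 and 5.78 FPKM.

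Pituitary markers were uneven. Cga, the common subunit of the glycoprotein hormones, read 70.4, 282 and 183 FPKM, Lhb 2.46, 8.71 and 19.1 FPKM and Tshb 3.64, 15.2 and 5.27 FPKM, all lowest in replicate 1. Pou1f1, the factor of somatotropes, lactotropes and thyrotropes, read 25.2, 17.7 and 18.3 FPKM. The hormones that dominate the anterior lobe were at or near 0, with Prl listed at 0 throughout and Gh1 at 0.237, 0.0603 and 0 FPKM. Cga and Tshb are also made in the pars tuberalis, the pituitary tissue that wraps the hypothalamic stalk.

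Markers of choroid plexus were low, with Ttr (transthyretin), normally its most abundant transcript, at 30.7, 44.4 and 8.25 FPKM and Kcnj13 at 18, 20.4 and 21.1 FPKM. Of the cortex and hippocampus list, Slc17a7, Neurod6, Neurod2, Tbr1 and Itpka had means under 2 FPKM, whereas Nrgn, encoding neurogranin, read 99.4, 149 and 207 FPKM and Lamp5 12.2, 7.46 and 13.6 FPKM. For striatum, Drd1 read 2.42, 2.46 and 2.49 and Adora2a 2.53, 2.54 and 2.42 FPKM, and the members at 10 FPKM or more were Penk, Ppp1r1b, Tac1 and Rasd2, of which Penk, Tac1 and Ppp1r1b also stand in hypothalamic or tanycyte lists. How much of any hypothalamic value comes from adjoining tissue was not tested.

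**Figure D4:**
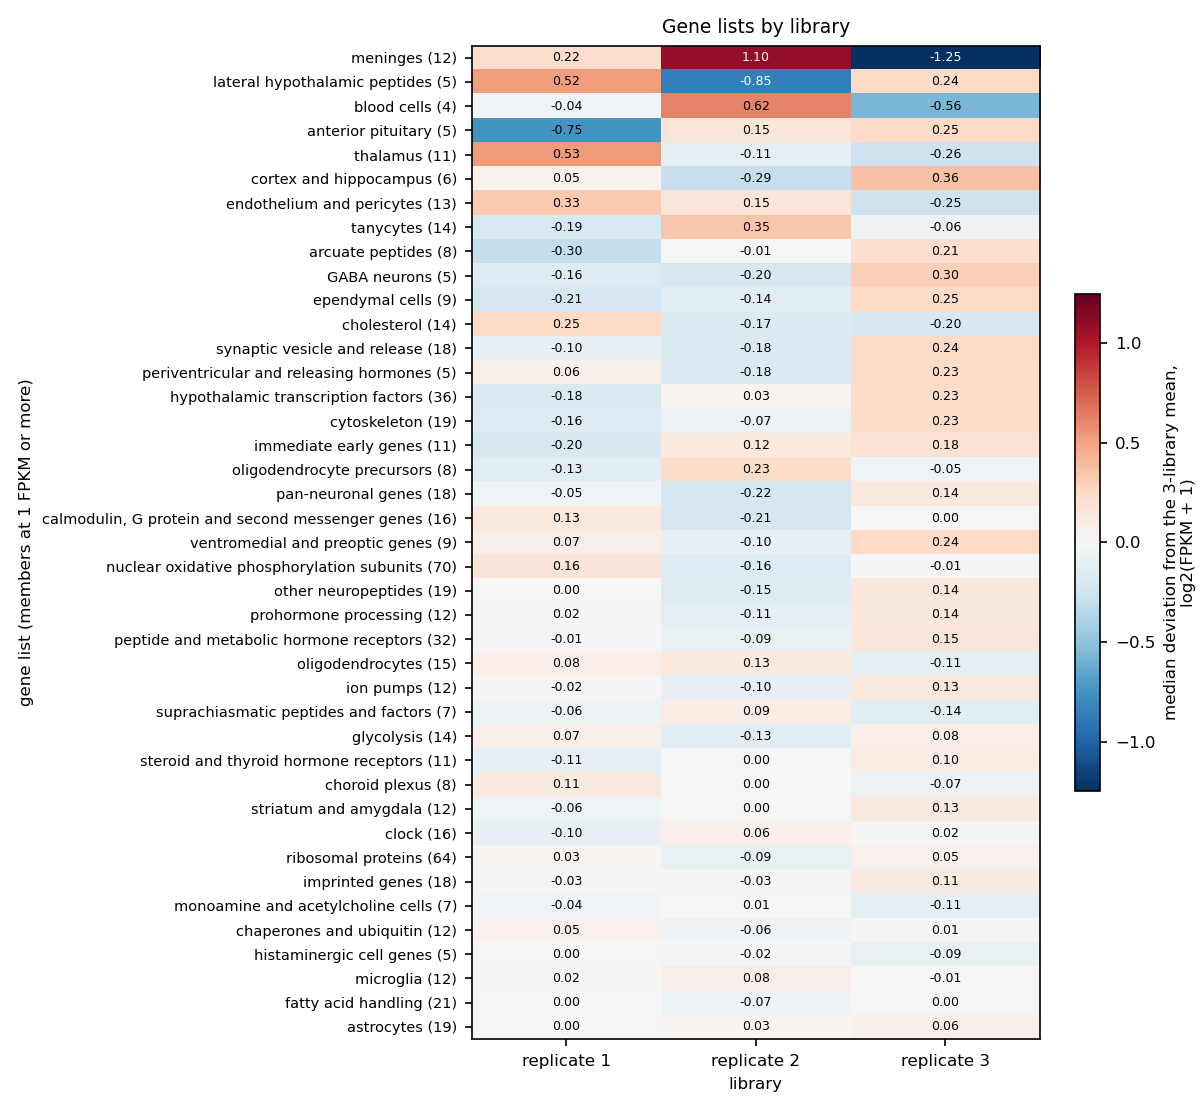
Median deviation of each gene list from its 3-library mean, in log2(FPKM + 1), for lists with at least 4 members at 1 FPKM or more, ordered by range. The meninges list goes from 1.10 in replicate 2 to -1.25 in replicate 3, lateral hypothalamic peptides are lowest in replicate 2 (-0.85), and the anterior pituitary list is lowest in replicate 1 (-0.75).

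Fatty acid genes, of interest on a lipid diet, were described as levels only. Of 25 found, 21 were at 1 FPKM or more, with 0.609%, 0.405% and 0.416% of all FPKM. Scd, a stearoyl-CoA desaturase, read 1564, 901 and 974 FPKM at its higher locus, 1566, 1287 and 1270.2 FPKM with its 2 loci summed, and took most of that share. Fabp7, a brain fatty acid binding protein with affinity for DHA, read 213, 127 and 125, Fads2, the delta-6 desaturase of DHA synthesis, 149.7, 146 and 154 and Fabp5 111, 84.3 and 87.8 FPKM. Fads2 was even and the others were highest in replicate 1. Elovl5 and Elovl2, elongases of the same pathway, had means of 82.2 and 19.2 FPKM. Mfsd2a, which carries DHA across the blood-brain barrier, read 13.5, 16.2 and 16.6 FPKM at its higher locus and 29.2, 29.4 and 32.1 FPKM with its 2 loci summed. Ffar4, the omega-3 receptor GPR120, read 0.115, 0.186 and 0.21 FPKM, and Ffar1 and Elovl6 were listed at 0.

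Cholesterol genes were all expressed (14 of 14). Below Apoe stood Hmgcs1 at 133, 67.9 and 61.2 and Cyp46a1, the neuronal cholesterol hydroxylase, at 66.6, 56 and 79 FPKM. Hmgcs1 was 2.18-fold higher in replicate 1 than in the lowest library, and 10 of the 14 genes were highest there (all expressed symbols: 44.3%).

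Clock genes were led by Dbp, Nr1d1, Tef and Bhlhe40. Dbp, an output gene of the clock, read 68.5, 117 and 125 and Nr1d1 (Rev-erb alpha) 33.2, 63.3 and 67.4 FPKM, both lowest in replicate 1. Arntl (Bmal1) was nearly even at 8.15, 7.77 and 7.46 FPKM. Of the 16 expressed clock genes, 9 were lowest in replicate 1 (all expressed symbols: 36.0%) and 7 in replicate 3. Immediate early genes, which mark recent neuronal activity, were led by Egr1 at 16, 27.5 and 29.2, Jun at 24, 21.3 and 17.7, Fos at 19.8, 21.9 and 20.6 and Junb at 11.6, 16.9 and 18.6 FPKM. Of the 11 expressed, 10 were lowest in replicate 1 (all expressed symbols: 36.0%), and Fos itself differed 1.11-fold. The time of day of collection was not given in the sources used here.

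Imprinted genes, expressed from 1 parental copy in at least some tissues and long linked to hypothalamic function, had a median percentile of 95.3. All 18 found were expressed (all symbols: 66.6%), 9 at 100 FPKM or more, and they held 1.98% ± 0.322. Without the 10 highest symbols, Gnas among them, the share was 1.14%. Whether 1 or both copies were expressed here was not tested. After Gnas and Nnat came Ndn (necdin), in the Prader-Willi region, at 580.2, 509.7 and 699 and Nap1l5 at 707, 501 and 559 FPKM.

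Housekeeping classes set the scale. Nuclear-encoded subunits of oxidative phosphorylation, gathered by name pattern, held 4.13% ± 0.346, a mean share within 1 SD of that of the astrocyte list and below it without replicate 1 (3.95% against 4.01%), with 70 of 73 at 1 FPKM or more, led by Atp5j2, Atp5e, Cox6a1 and Cox8a. None of the 13 mitochondrially encoded genes was found in the table. Ribosomal protein genes had 64 of 76 at 1 FPKM or more and held 2.09% ± 0.119, with Rpl41 and Rpl14 among the highest. Glycolysis held 1.13% ± 0.0943, with Aldoa, Gpi, Aldoc and Gapdh highest, and ion pumps 1.10% ± 0.0660, with Atp6v0c, Atp1b1 and Atp1b2 among the highest. Chaperone and ubiquitin genes held 2.36% ± 0.318, with Ubb, Uchl1 and Hsp90ab1 among the highest, and cytoskeleton genes 1.92% ± 0.362, with Tmsb4x, Actb, Dynll1 and Tubb4a highest. Of the 43 lists with a gene in the table, 15 had a median percentile of at least 95, among them the magnocellular and lateral peptides, prohormone processing, GABA neurons, astrocytes and oligodendrocytes, and 8 lay under 50.

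The typical gene varied little. Over the 10757 expressed symbols the median SD of log2(FPKM + 1) between libraries was 0.25, and 9 in 10 symbols lay under 0.53. Without replicate 1 the median fell to 0.13. Among symbols with 1 locus and at least 100 FPKM, the steadiest were Ppap2b (177, 178 and 174 FPKM), Tmbim6, Arpc1a, Mrpl49 and Dazap2, all within 1.04-fold.

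The 10 most variable symbols with 1 locus and at least 5 FPKM were, after RT1-CE16, Iqub, Hsd3b7, Hspa12a, Serhl2, Tuba1a, Actg2, Zswim7, Acta2 and Grifin. Tuba1a, a main neuronal alpha-tubulin, read 41.9, 589.9 and 709.5 FPKM, with replicate 1 far below the others. Hsd3b7, a steroid dehydrogenase, read 4.53, 99.6 and 134 FPKM and Iqub 0, 25 and 21.6 FPKM, again with replicate 1 lowest. Replicate 1 was the lowest library for Hspa12a, Serhl2 and Grifin too. The smooth muscle genes Acta2 and Actg2 were lowest in replicate 3, where Actg2 read 0.211 FPKM, and Zswim7 was highest in replicate 1 at 245, 47.3 and 11.6 FPKM.

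**Figure D5:**
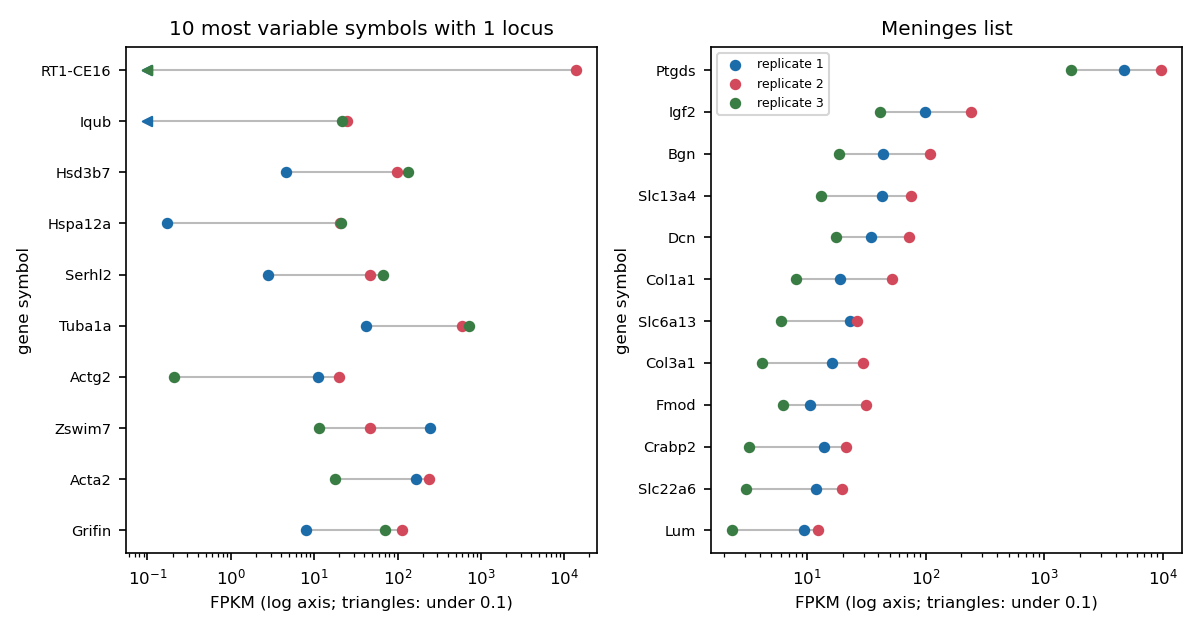
FPKM (log axis) in each library for the 10 most variable symbols with 1 locus (left) and for the 12 expressed genes of the meninges list (right); triangles stand for values under 0.1. RT1-CE16 is above 0 only in replicate 2, and each meningeal gene is highest in replicate 2 and lowest in replicate 3.

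MicroRNA symbols formed a last class. MicroRNAs are short RNAs that silence mRNAs matching their seed, bases 2 to 8 of the mature strand. These libraries were made from poly-A RNA, so a value at such a symbol is of longer RNA assigned to the locus and not of the mature strand. Of 339 symbols beginning with Mir, 32 had a mean of at least 1 FPKM, 10 at least 10, and 296 were listed at 0. Mir9-1 read 216, 246 and 266 FPKM, rank 255, and Mir770 135, 166 and 203 FPKM, rank 426. Both were lowest in replicate 1 and highest in replicate 3. Mir9-1 gives rise to a microRNA of neural progenitors and neurons. The mature strands of these 2 highest loci, chosen after their values were seen, are shown from RefSeq (GRCr8) with the seed in capitals.
rno-miR-9a-5p: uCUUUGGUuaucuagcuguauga
rno-miR-9a-3p: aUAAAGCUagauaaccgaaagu
rno-miR-770-5p: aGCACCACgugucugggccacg
rno-miR-770-3p: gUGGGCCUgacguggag

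The 4 strands have 4 different seeds. Next in this order were Mir1949 at 63.9, 45.3 and 57.4 and Mir98, a member of the let-7 family, at 20.1, 29.4 and 27.4 FPKM.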

How the data were processed

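For 3 hypothalamus samples on the DHA diet, poly-A RNA was enriched, fragmented and reverse transcribed from random hexamers, and libraries were run on a HiSeq 2000, per the labels' protocols. The deposited values are FPKM computed by the authors, 1 row per locus with a status word per library. TopHat, TopHat2, Bowtie, Bowtie2, Cufflinks, Cuffdiff and the rat build rn5 are named in the submitters' processing notes; versions and settings are not given in the sources used here. Depth is unknown, so counting error could not be given an interval.

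Rows with status OK in all libraries were kept (24 left out), and the locus with the highest mean represented each symbol. Symbols matched RefSeq (GRCr8) names or synonyms for 15732 of them (97.3%). Ranks and percentiles used mean FPKM; spread used log2(FPKM + 1) over symbols whose mean was 1 FPKM or more. With 1 group no test was made. The code was tested on simulated data. Python 3.11.15, pandas 2.3.3, numpy 2.4.6 and matplotlib 3.10.9 were used.

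Members and gene lists were chosen with earlier results of these data known; 651 of 714 listed genes were found. Named were Oxt, Avp, Pmch and Hcrt, the 30 highest symbols, members of the hypothalamic lists, the 4 highest of each other list and adjoining-tissue genes at 10 FPKM or more, and the 10 most variable and 5 steadiest symbols with 1 locus. Other genes (restricted cell markers, pathway genes and receptors described for their role) were named after their values were seen. Some genes that meet these rules are not reported here. Alternatives left out a library, summed loci, used symbols with 1 locus, the median, other minimums and pseudocounts, and all rows whatever their status. Leaving out RT1-CE16, the thalamus list without Slc17a6 and Calb2, the ratio with loci summed and the promoter sets without Oxt, Avp and Hcrt were chosen after seeing the data.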

Additional observations from a re-analysis of the deposited data

How the results depend on the processing

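Leaving out each library in turn gave 10697 to 10764 symbols at 1 FPKM or more, 8.26% to 9.81% of FPKM in the 10 highest symbols, 26.6% to 28.7% in the 100 highest, 13 to 15 lists with a median percentile of at least 95, and a median SD of 0.13 to 0.26, the lowest without replicate 1. With a pseudocount of 5 that median was 0.17, and with no minimum it was 0.17. The other alternatives left these values within 1.5 times or within the spread. RT1-CE16 ranked 14697 without replicate 2. With symbols of 1 locus only, the shares of 19 of 43 lists moved by more than their spread, and 7 lists changed by over 1.5 times, among them second messengers (0.452% in place of 1.72%), imprinted genes (1.03% in place of 1.98%), chaperones and ubiquitin (1.33% in place of 2.36%) and fatty acid genes (0.242% in place of 0.477%). Without the 10 highest symbols 21 moved, 8 by over 1.5 times: meninges (0.0956% in place of 1.29%), cholesterol (0.128% in place of 1.01%), the magnocellular peptides (0.490% in place of 1.18%), chaperones and ubiquitin (0.704%), second messengers (0.847%), imprinted genes (1.14%), astrocytes (2.45% in place of 4.02%) and oligodendrocytes (1.05% in place of 1.80%). Without replicate 2 the meninges share was 0.773% in place of 1.29%. With symbols of 1 locus only, the median percentile of glutamate genes was 36.4 in place of 62.2 and that of GABA genes 85.8 in place of 96.3. Without replicate 2 the meninges list was at 64.8 in place of 73.0, and the releasing hormones at 66.8 in place of 76.9. No paired analysis was possible because 1 group is described and no groups are compared. Unknown depth, 3 libraries and symbols divided between loci limit these values; the cause of the shifts was not tested.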
